A study of Mus musculus with 26 samples.

Results

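The T helper 1 (Th1) programme of CD4 T cells was followed through 8 genes: the T-box transcription factors Tbx21 and Eomes, the cytokine Ifng, the IL-12 receptor chains Il12rb1 and Il12rb2, the IL-12 signal transducer Stat4, the chemokine Ccl5 and the homeodomain protein gene Hopx. They were chosen by symbol from a table of 24411 genes, and all 8 were among the 12227 genes kept by the filter on low counts. The samples were 26 poly(A) RNA-seq libraries from regulatory (Treg) and conventional CD4 T cells of C57BL6/J mice. Cells had been sorted fresh from spleen and lymph nodes, and the libraries form 13 groups of 2. Treg cells suppress immune responses and depend on the transcription factor Foxp3, and BATF is an AP-1 family factor of activated T cells.

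In T helper cells IL-12 binds a receptor made of Il12rb1 and Il12rb2, of which Il12rb1 is shared with the IL-23 receptor, and the signal passes through STAT4. T-bet, the product of Tbx21, directs the Th1 fate and drives Ifng, the gene of interferon-gamma, together with the related factor Eomes, which is best known in CD8 T cells and NK cells. Ccl5 encodes a chemokine of effector T cells, Hopx is expressed in effector and regulatory T cells, and Treg that express T-bet are known to control Th1 responses.

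The groups came in 5 sets that differ in reporter alleles and sorting gates. In the germline set, BATFKO Treg were CD4+hCD2+ cells of Foxp3-IRES-hCD2 mice that were also Batf-/-, and WT Treg (CD4+hCD2+) and WT Tconv (CD4+hCD2-) came from Foxp3-IRES-hCD2 mice. In the YFP set, BATFcKO Treg were CD4+YFP+hCD2- cells of mice with a Foxp3-IRES-YFPCre and a Foxp3-IRES-hCD2 allele and Batfflox/flox, so that Cre was driven from the Foxp3 locus, and WT Treg YFP had the same reporters without the floxed Batf. In the R397W set, Foxp3R397W Treg were CD4+hCD2+GFP- cells of mice that carried a Foxp3R397W-IRES-hCD2 allele beside a normal Foxp3-IRES-GFP allele, and the controls carried Foxp3WT-IRES-hCD2 in its place. In the Foxp3KO set, the hCD2 allele of the Foxp3KO Treg was the frameshift Foxp3fs101-IRES-hCD2, again beside Foxp3-IRES-GFP. The controls of this set are labelled as WT Treg. The mutant mice of both of these sets thus carried a normal Foxp3 allele beside the mutant one. The sorted WT set, from Foxp3-IRES-hCD2 mice, held effector Treg (eTreg, CD4+hCD2+ and low for CCR7), central Treg (cTreg, CD4+hCD2+, high for CCR7 and low for CD44), effector conventional T cells (Teff, CD4+hCD2- and low for CCR7) and naive conventional T cells (Tnaive, CD4+hCD2-, high for CCR7 and low for CD44).

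Library totals ranged from 5615929 to 34613707 counts, with the 4 Foxp3KO-set libraries the deepest (26321134 to 34613707), and these 4 stood apart on the second principal component. Batf was at 7.21 and 6.83 CPM, counts scaled to library size, in BATFKO Treg, against 46.1 and 82.9 CPM in WT Treg, and at 19.5 and 15.9 CPM in BATFcKO Treg, against 67.8 and 58.4 CPM in WT Treg YFP. Foxp3 was at 109 and 113 CPM in Foxp3KO Treg, against 348 and 325 CPM in their controls. It was at 359 and 342 CPM in Foxp3R397W Treg, against 452 and 379 CPM in their controls, a level that does not check a missense allele. The Tconv libraries carry a cell type label that reads Treg, but had 4.07 and 2.57 CPM of Foxp3, against 404 and 505 CPM in WT Treg. No label ties the libraries of a group to separate animals, so p-values measure only the spread between these libraries.

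The promoters of 4 of the 8 genes are shown: Tbx21 and Ifng because both were higher in eTreg than in cTreg and in Teff than in Tnaive, and Eomes and Il12rb2 because both were highest in Teff and lowest in eTreg. The 250 bases before the annotated start come from RefSeq on GRCm38.p6, which held 6 of the 8 genes, and are written 5′ to 3′ on the strand of the gene. Capitals mark matches to the STAT-type palindrome TTCNNNGAA or to the promoter element TATAAA.
Ifng (chr10:118440796-118441045, + strand): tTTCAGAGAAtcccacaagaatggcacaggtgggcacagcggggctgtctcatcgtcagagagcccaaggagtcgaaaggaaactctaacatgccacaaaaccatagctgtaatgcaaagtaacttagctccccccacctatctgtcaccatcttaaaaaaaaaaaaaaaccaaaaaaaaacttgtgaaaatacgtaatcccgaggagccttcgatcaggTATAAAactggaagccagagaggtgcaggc
Tbx21 (chr11:97115332-97115581, - strand): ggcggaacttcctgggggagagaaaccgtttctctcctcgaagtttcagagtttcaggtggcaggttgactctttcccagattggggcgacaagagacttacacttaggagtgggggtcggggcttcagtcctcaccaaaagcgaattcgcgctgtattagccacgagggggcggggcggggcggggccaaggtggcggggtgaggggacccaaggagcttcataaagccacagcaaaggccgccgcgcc
Il12rb2 (chr6:67376189-67376438, - strand): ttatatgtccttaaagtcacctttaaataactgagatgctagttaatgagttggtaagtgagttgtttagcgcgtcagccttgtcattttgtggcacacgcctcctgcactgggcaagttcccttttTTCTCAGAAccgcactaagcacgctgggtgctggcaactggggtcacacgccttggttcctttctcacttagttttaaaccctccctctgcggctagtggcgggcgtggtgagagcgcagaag
Eomes (chr9:118477939-118478188, + strand): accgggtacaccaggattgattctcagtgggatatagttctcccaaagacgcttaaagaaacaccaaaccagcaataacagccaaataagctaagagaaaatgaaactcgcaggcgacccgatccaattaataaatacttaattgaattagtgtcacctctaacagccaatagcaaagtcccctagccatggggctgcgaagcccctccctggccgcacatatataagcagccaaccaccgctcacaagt
The STAT-type palindrome began 249 bases before the start in Ifng and 123 bases before it in Il12rb2, and 7.02% of 32851 RefSeq promoters of the same length held it on either strand. The element TATAAA of Ifng began 30 bases before the start, and 12.4% of all promoters held it. No match overlapped another. The other windows, Stat4 and Hopx included, held neither of these motifs, and none of the windows held the other 3 motifs searched on both strands: the T-box site AGGTGT, present in 11.8% of all promoters, the AP-1 site TGANTCA, in 6.75%, and the forkhead site TGTTTAC, in 3.17%.

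The 8 genes lie on different chromosomes of mm10 except Tbx21 (chr11:97098071-97115331) and Ccl5 (chr11:83525778-83530518), both on the minus strand of chromosome 11. Il12rb2 (chr6:67291318-67376188) overlaps Serbp1, a gene of the opposite strand that was also counted. Because the sources used here do not say whether counting used strand, reads of those 2 genes may not be fully told apart.

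**Figure D1:**
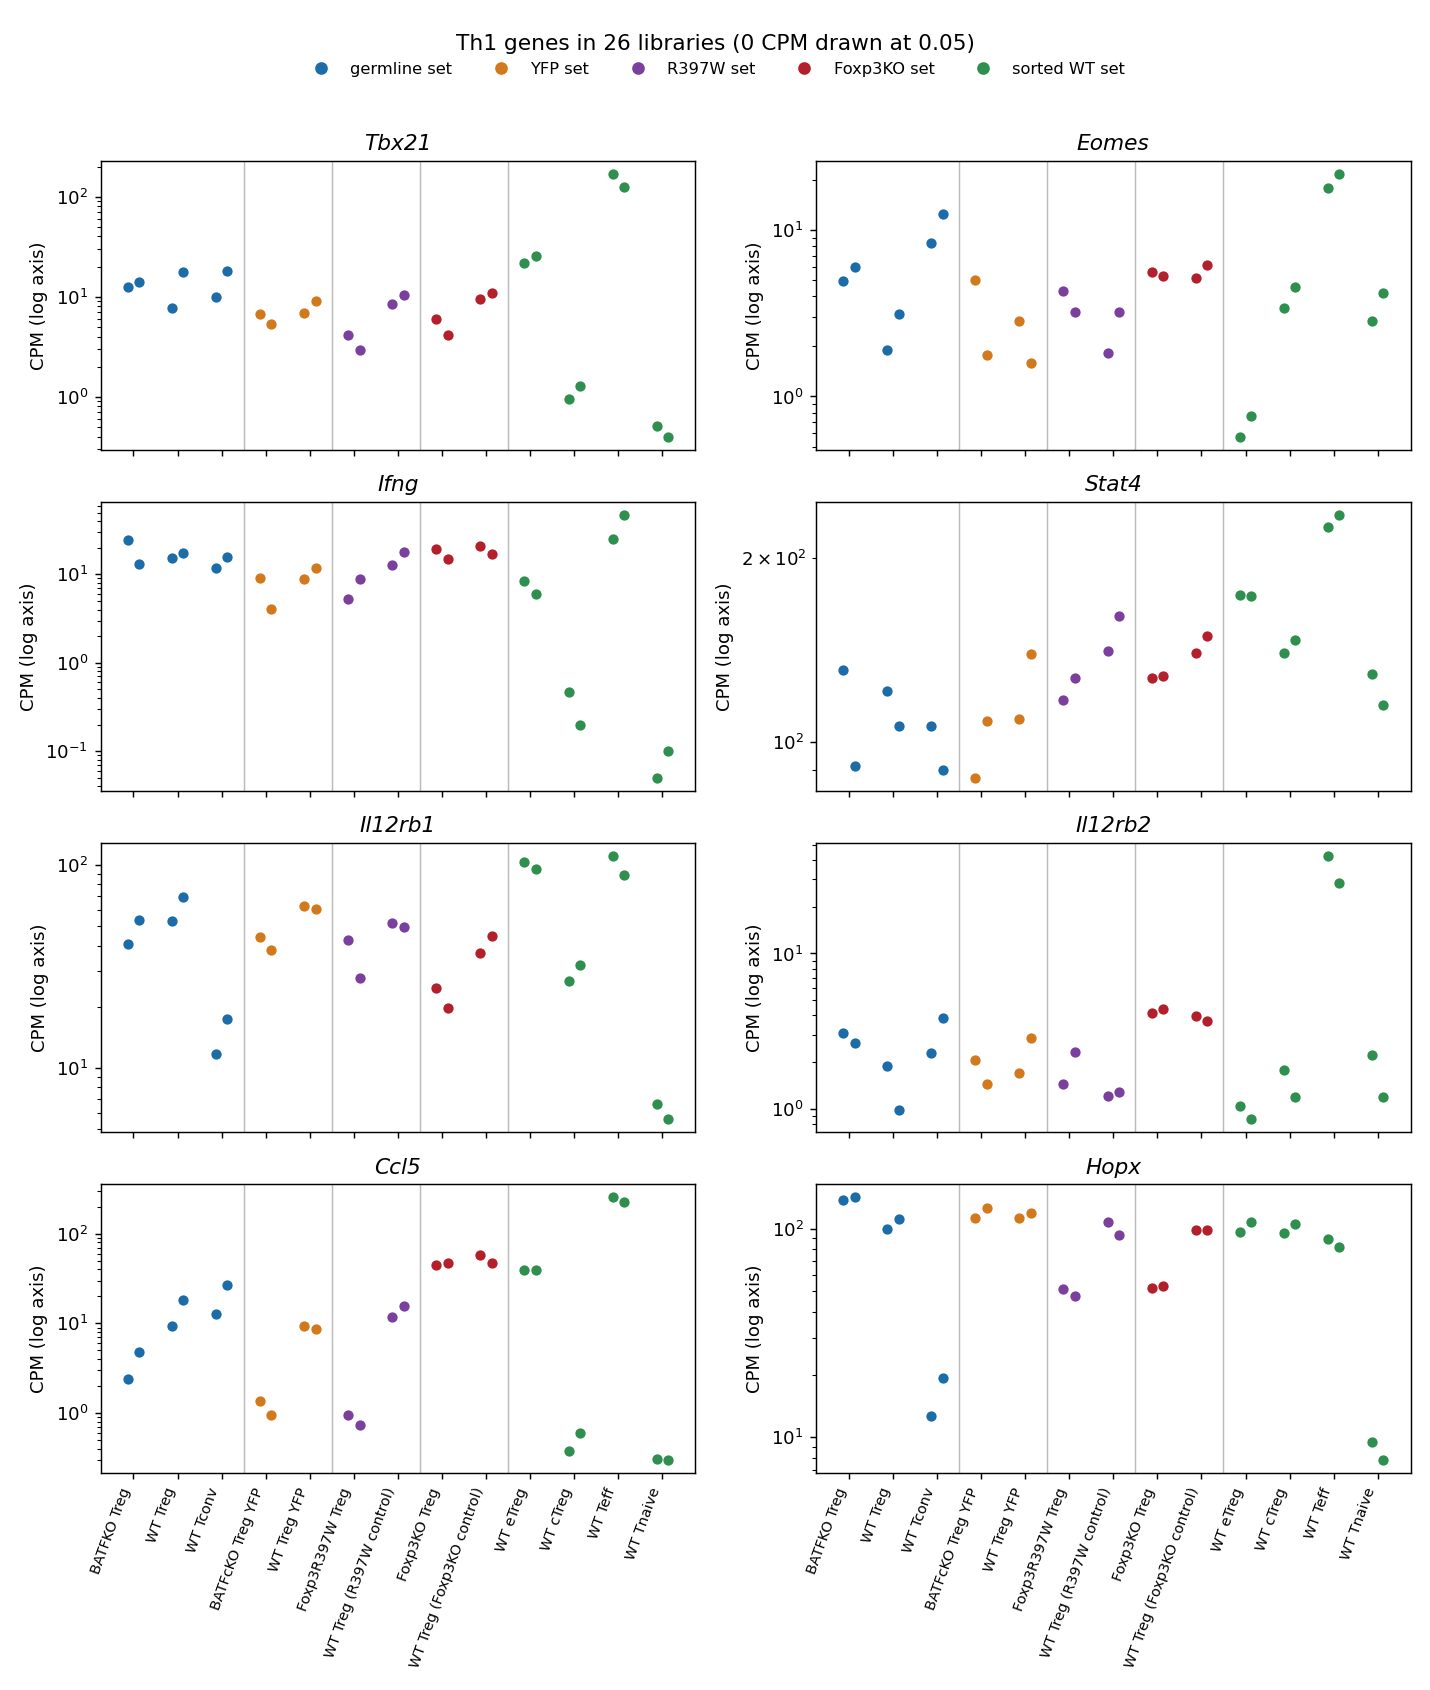
Level of each of the 8 genes in each library, in CPM on a log axis, with the 13 groups along the horizontal axis and colour for the sort set; each point is 1 library and a library with no read is drawn at 0.05. Tbx21, Ifng, Ccl5, Il12rb2 and Eomes are highest in the 2 Teff libraries, while Hopx lies between 93.1 and 119 CPM in every wild-type Treg library.

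The first comparison asks how the Th1 genes differ between effector and central Treg. Of the 8 genes, 4 rose in eTreg: Ccl5, Tbx21, Ifng and the receptor chain Il12rb1. Eomes fell, and Stat4, Il12rb2 and Hopx did not pass the test. The count of 5 of 8 called stands beside 31.1% of all tested genes called in this comparison, 18.8% higher and 12.3% lower.

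Tbx21 had 21.9 and 25.5 CPM in eTreg, against 0.94 and 1.29 CPM in cTreg, the cTreg values resting on 10 and 13 reads. Both eTreg libraries were far above both cTreg libraries, with a log2 fold change of 4.40 ± 0.40 (SE; edgeR adjusted p = 8.6e-08). Its relative Eomes went the other way, with 0.573 and 0.768 CPM in eTreg, against 3.38 and 4.55 CPM in cTreg. The log2 fold change of Eomes was -2.54 ± 0.47 (edgeR adjusted p = 0.00035), and eTreg had the lowest Eomes of all 13 groups, resting on 6 and 8 reads. So the 2 T-box factors, which are often described as partners, changed in opposite directions between these sorted Treg.

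Among the receptor and signalling genes, Il12rb1 had 103 and 95.4 CPM in eTreg, against 26.6 and 31.9 CPM in cTreg (log2 fold change 1.77 ± 0.21, edgeR adjusted p = 1.9e-06). Its partner chain Il12rb2 had 1.05 and 0.864 CPM in eTreg, against 1.79 and 1.19 CPM in cTreg, groups that did not overlap but did not pass the test (-0.63 ± 0.45, edgeR adjusted p = 0.32). Per kilobase of exon, eTreg held 90.9 and 102 times as many reads of Il12rb1 as of Il12rb2, against 13.8 and 24.8 times in cTreg. Effector Treg thus carried abundant RNA for the shared chain and hardly any for the IL-12-specific chain. Stat4 was at 174 and 173 CPM in eTreg, against 140 and 147 CPM in cTreg (0.28 ± 0.15, edgeR adjusted p = 0.18).

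Of the effector products, Ifng had 8.5 and 6.05 CPM in eTreg, against 0.47 and 0.198 CPM in cTreg (log2 fold change 4.39 ± 0.65, edgeR adjusted p = 3.3e-05). The cTreg values rest on 5 and 2 reads. Ccl5 had 39.6 and 39.8 CPM in eTreg, against 0.376 and 0.594 CPM in cTreg, the steepest rise among the 8 genes (6.33 ± 0.43, edgeR adjusted p = 2.7e-09). Hopx had 96.7 and 107 CPM in eTreg, against 94.8 and 105 CPM in cTreg, and these ranges overlapped almost fully (0.02 ± 0.13, edgeR adjusted p = 0.92).

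Wider lists of the same pathway were counted in the same comparison, where 31.1% of all tested genes were called. Of 11 Th1 receptor and signalling genes, 7 rose and Ifngr2 fell; Cxcr3, the chemokine receptor of Th1 cells, averaged 164 ± 15.9 CPM in eTreg and 2.41 ± 0.225 CPM in cTreg (SD, n = 2 each), and Il18rap, a chain of the IL-18 receptor, averaged 76.0 ± 0.925 CPM in eTreg and 2.26 ± 0.258 CPM in cTreg. Of 7 Th1-linked transcription factors 5 rose, including Id2, Prdm1 and Bhlhe40, and the other 2, Ets1 and Irf1, did not pass the test. Among 6 factors that oppose the Th1 programme, Bcl6 and Gata3 rose while Bach2, Socs3 and Tcf7 fell. Of 25 interferon-gamma target genes, which include 3 that other lists also hold, 3 rose and 5 fell. This share of calls was close to that of all tested genes. Cxcl10 averaged 17.4 ± 5.13 CPM in eTreg and 0.43 ± 0.189 CPM in cTreg. The GTPase gene Tgtp1 averaged 7.85 ± 1.6 CPM in eTreg and 26.5 ± 3.52 CPM in cTreg.

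Markers of other cells moved with the eTreg group as well. The 8 B cell genes summed to 62.0 to 62.5 CPM in eTreg, against 14.3 to 15.7 CPM in cTreg; Cd22, Cd79b and Blk were called higher and Cd79a lower. The 14 NK and CD8 genes summed to 61.2 to 61.7 CPM in eTreg, against 31.8 to 39.5 CPM in cTreg. Klrb1c, Gzmb, Cd160 and Gzma among them were higher and Prf1 and Cd8b1 lower, while the NK receptor genes Ncr1, Klre1, Klra1, Klra8 and Klrc2 were at 0 in eTreg. The part of these cells in the Th1 levels of eTreg was not tested.

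The matching comparison in conventional T cells, Teff against Tnaive, gave 8 of 8 genes higher in Teff, where 35.3% of all tested genes were called, 21.2% higher and 14% lower. Tbx21 had 168 and 124 CPM in Teff, against 0.509 and 0.399 CPM in Tnaive (log2 fold change 8.29 ± 0.43, edgeR adjusted p = 4.3e-11). The Tnaive values of Tbx21 come from 5 and 4 reads. Eomes had 18.0 and 21.7 CPM in Teff, against 2.85 and 4.19 CPM in Tnaive (2.49 ± 0.33, edgeR adjusted p = 6.6e-06). Both T-box factors were thus higher in every Teff library than in either Tnaive library.

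Il12rb1 had 110 and 89.3 CPM in Teff, against 6.62 and 5.59 CPM in Tnaive (4.03 ± 0.24, edgeR adjusted p = 2.7e-10). Il12rb2 had 42.1 and 28.4 CPM in Teff, against 2.24 and 1.2 CPM in Tnaive (4.35 ± 0.31, edgeR adjusted p = 2.9e-09). Both receptor chains therefore rose together in conventional cells, and the ratio of Il12rb1 to Il12rb2 reads per kilobase was 2.43 and 2.91 in Teff, against 2.73 and 4.31 in Tnaive. Stat4, already abundant in Tnaive, had 225 and 235 CPM in Teff, against 129 and 115 CPM in Tnaive (0.92 ± 0.15, edgeR adjusted p = 7.6e-05).

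Ifng gave 259 and 511 reads in Teff, against 0 and 1 read in Tnaive (edgeR adjusted p = 1.1e-08), so its size is given as a depth-scaled count ratio of 721, with an exact 95% interval of 129 to 28504 that covers counting error only. Ccl5 had 254 and 227 CPM in Teff, against 0.305 and 0.299 CPM in Tnaive (9.59 ± 0.43, edgeR adjusted p = 6.7e-12). The Tnaive values of Ccl5 come from 3 reads in each library. Hopx had 89.2 and 81.5 CPM in Teff, against 9.46 and 7.78 CPM in Tnaive (3.31 ± 0.15, edgeR adjusted p = 9.7e-12). Hopx in Teff therefore came close to, but stayed below, the 93.1 to 119 CPM of the wild-type Treg libraries.

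Of the wider lists, 9 of 10 Th1 cytokine, chemokine and effector genes rose in Teff, with Nkg7, a granule-associated membrane protein gene, at 153 ± 32.4 CPM in Teff and 0.252 ± 0.0748 CPM in Tnaive. Of 11 receptor and signalling genes 7 rose, with Cxcr3 at 375 ± 46.1 CPM in Teff and 0.456 ± 0.363 CPM in Tnaive. Of 25 interferon-gamma target genes 6 rose, Gbp3 and Cxcl10 among them, and Tgtp1 and Tgtp2 fell. This share of calls was not above the 35.3% of all tested genes called.

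Markers of other cells also moved with the Teff group. The summed level of 14 NK and CD8 genes was 251 to 354 CPM in Teff, with 13 of 14 detected, against 76.5 to 78.0 CPM in Tnaive and 61.2 to 61.7 CPM in eTreg. Much of that sum was Klrb1c, at 126 and 84.0 CPM in Teff and 0 in both Tnaive libraries, while the NK receptor gene Ncr1 was near 0, at 0.879 and 1.09 CPM in Teff. Of this list 9 genes were called higher and 2 lower in Teff, Prf1 (19.8 and 16.5 CPM in Teff, against 44.4 and 45.7 CPM in Tnaive) and Cd8b1 (a mean of 6.8 CPM in Teff and 18.8 CPM in Tnaive). Zbtb16, the factor of innate-like T cells, had 107 and 67.5 CPM in Teff and 0 in Tnaive. The 7 plasmacytoid dendritic cell genes summed to 118 to 354 CPM in Teff, against 14.0 to 16.1 CPM in Tnaive, and Siglech among them had 945 reads in the first Teff library and 219 in the second. The 9 myeloid genes, of which 7 were called higher and Itgam lower, summed to 74.9 to 240 CPM in Teff, against 9.16 to 10.5 CPM in Tnaive. The 8 B cell genes, of which Cd22 and Cd79b were called higher and Cd79a lower, summed to 68.9 to 76.3 CPM in Teff, against 8.35 to 9.28 CPM in Tnaive. The part of these cells in the Th1 levels of Teff was not tested. Fewer cells of a type and less RNA per cell cannot be told apart in bulk libraries, here or in any comparison below.

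All 8 genes stayed higher in Teff when either Teff library was left out. Eomes, Ifng and Stat4 were higher in the second Teff library, and the other 5 genes were higher in the first. Each Teff library alone was above both Tnaive libraries in the marker sums given above. These values therefore do not test the part of other cells.

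**Figure D2:**
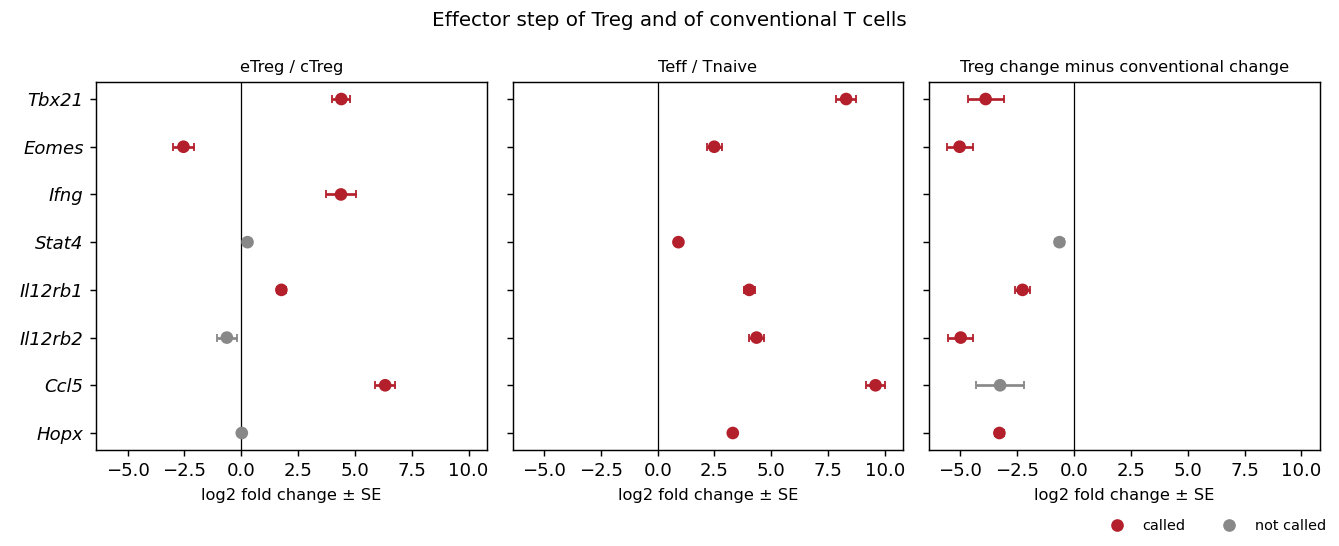
Log2 fold changes with their standard errors for the 8 genes in eTreg over cTreg, in Teff over Tnaive, and for the first change minus the second, on a shared axis; red marks genes past the edgeR threshold. Ifng is left out of the panels that use Tnaive, which had 1 read of it, and all 7 genes drawn in the right panel lie below 0.

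The difference between the 2 effector changes was tested directly, with the Treg change first. In this difference 5 of the 8 genes were lower, where 5.42% of all tested genes were called, 1.57% higher and 3.85% lower. Eomes differed most (-5.03 ± 0.57, edgeR adjusted p = 1.2e-05), since it fell in Treg and rose in conventional cells. Il12rb2 (-4.98 ± 0.55, edgeR adjusted p = 1e-05) and Hopx (-3.28 ± 0.20, edgeR adjusted p = 7.2e-09) were called in the conventional comparison alone. Tbx21 (-3.89 ± 0.80, edgeR adjusted p = 0.0043) and Il12rb1 (-2.26 ± 0.31, edgeR adjusted p = 0.0001) rose in both, less in Treg.

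The difference was -3.25 ± 1.04 for Ccl5 (edgeR adjusted p = 0.086) and -0.64 ± 0.21 for Stat4 (edgeR adjusted p = 0.095), neither past the threshold; DESeq2 called both (adjusted p = 0.00363 and 0.039). For Ifng the difference rests on the single Tnaive read. Without the second cTreg library, Tbx21 was no longer called (edgeR adjusted p = 0.0677).

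Set directly against Teff, eTreg had lower levels of 5 of the 8 genes, where 15.5% of all tested genes were called, 8.21% higher and 7.26% lower. Using the library values given above, Il12rb2 was lowest relative to Teff (-5.18 ± 0.34, edgeR adjusted p = 4.1e-09), followed by Eomes (-4.87 ± 0.42, edgeR adjusted p = 1.1e-07). Tbx21 (-2.62 ± 0.27), Ccl5 (-2.60 ± 0.25) and Ifng (-2.31 ± 0.36) followed, with edgeR adjusted p of 1.1e-06, 4.3e-07 and 0.00012. Effector Treg thus had Tbx21, Ccl5 and Ifng RNA at intermediate levels, above cTreg and below Teff. Il12rb1 overlapped between eTreg and Teff (-0.01 ± 0.19, edgeR adjusted p = 1.0), as part of a set of 3 with Hopx (0.25 ± 0.13, edgeR adjusted p = 0.25) and Stat4 (-0.41 ± 0.15, edgeR adjusted p = 0.076) that did not pass the test; Stat4 passed it when genes were not filtered on low counts (edgeR adjusted p = 0.033) and with DESeq2 (adjusted p = 0.041).

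Of 10 Th1 cytokine, chemokine and effector genes, 6 were lower in eTreg than in Teff, among them Nkg7 (21.1 ± 0.814 CPM in eTreg and 153 ± 32.4 CPM in Teff) and Xcl1 (1.72 ± 0.683 CPM in eTreg and 29.1 ± 4.01 CPM in Teff), and 1 was higher. Of 25 interferon-gamma target genes, 8 were higher and 2 lower in eTreg. Gbp3, a guanylate-binding protein gene, averaged 91.5 ± 9.25 CPM in eTreg and 47.8 ± 0.413 CPM in Teff, although Ifng itself was lower in eTreg. Per kilobase of exon, the order in eTreg ran from Hopx (67.0 CPM per kb) and Stat4 (44.8) through Ccl5 (41.4), Il12rb1 (24.2), Tbx21 (9.52) and Ifng (5.62) to Il12rb2 (0.252) and Eomes (0.161). In Teff it began with Ccl5 (251 CPM per kb), followed by Stat4 (59.4), Tbx21 (58.6) and Hopx (56.3), which lay within their spread of each other, then Ifng (27.8 ± 11.6) and Il12rb1 (24.3 ± 3.65), which did as well, Il12rb2 (9.28) and Eomes (4.77). Some places turned with the length used: per kilobase of the longest transcript, Ccl5 (59.5) stood above Stat4 (58.2) in eTreg, and in Teff Hopx (67.7) stood above Tbx21 (58.6) and Il12rb1 (34.8) above Ifng (29.8).

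In resting cells, 2 of the 8 genes were higher in cTreg than in Tnaive, where 12.2% of all tested genes were called, 7.91% higher and 4.28% lower. Hopx had 94.8 and 105 CPM in cTreg, against 9.46 and 7.78 CPM in Tnaive (log2 fold change 3.54 ± 0.15, edgeR adjusted p = 1.3e-11). Il12rb1 had 26.6 and 31.9 CPM in cTreg, against 6.62 and 5.59 CPM in Tnaive (2.26 ± 0.25, edgeR adjusted p = 1.7e-06). The Treg therefore had more of these 2 RNAs already in the resting gate, whereas the other 6 did not pass the test. Tbx21 rested on 10 and 13 reads in cTreg, against 5 and 4 reads in Tnaive (1.27 ± 0.76, edgeR adjusted p = 0.40). Ifng gave 5 and 2 reads in cTreg, against 0 and 1 read in Tnaive, a count ratio of 6.7 whose interval of 0.86 to 302 includes no difference.

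The unsplit WT Treg and WT Tconv of the germline set gave the same 2 genes higher, and Eomes lower, where 18.7% of all tested genes were called, 12.1% higher and 6.68% lower. Hopx had 99.3 and 111 CPM in WT Treg, against 12.6 and 19.3 CPM in WT Tconv (2.72 ± 0.15, edgeR adjusted p = 3.6e-10). Il12rb1 had 52.6 and 69.5 CPM in WT Treg, against 11.7 and 17.3 CPM in WT Tconv (2.06 ± 0.23, edgeR adjusted p = 2.6e-06). Eomes had 1.9 and 3.14 CPM in WT Treg, against 8.31 and 12.5 CPM in WT Tconv (-2.07 ± 0.39, edgeR adjusted p = 0.0007), so none of its Treg libraries reached a Tconv library. The call of Eomes ended when only these 4 libraries were fitted (edgeR adjusted p = 0.0527).

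Tbx21 had 7.74 and 17.7 CPM in WT Treg, against 9.9 and 18.0 CPM in WT Tconv, and Ifng had 15.4 and 17.5 CPM in WT Treg, against 11.8 and 15.9 CPM in WT Tconv. Both pairs of ranges overlapped, and neither gene passed the test (-0.17 ± 0.32, edgeR adjusted p = 0.80; 0.24 ± 0.37, edgeR adjusted p = 0.74). Ccl5 had 9.37 and 18.2 CPM in WT Treg, against 12.9 and 27.0 CPM in WT Tconv (-0.56 ± 0.30, edgeR adjusted p = 0.22), and became called lower in Treg without the second WT Treg library (-1.10, edgeR adjusted p = 0.0285) or without the first Tconv library (-0.99, edgeR adjusted p = 0.0199). The library values of Ccl5 in Treg and Tconv overlapped. Of 25 interferon-gamma target genes, 9 were higher in WT Treg, where 12.1% of all tested genes were called higher. Gbp3 was at 79.8 ± 8.32 CPM in WT Treg and 12.3 ± 1.42 CPM in WT Tconv. In cTreg against Tnaive 11 of the 25 were higher, Gbp3 and Gbp5 among them, where 7.91% of all tested genes were called higher.

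**Figure D3:**
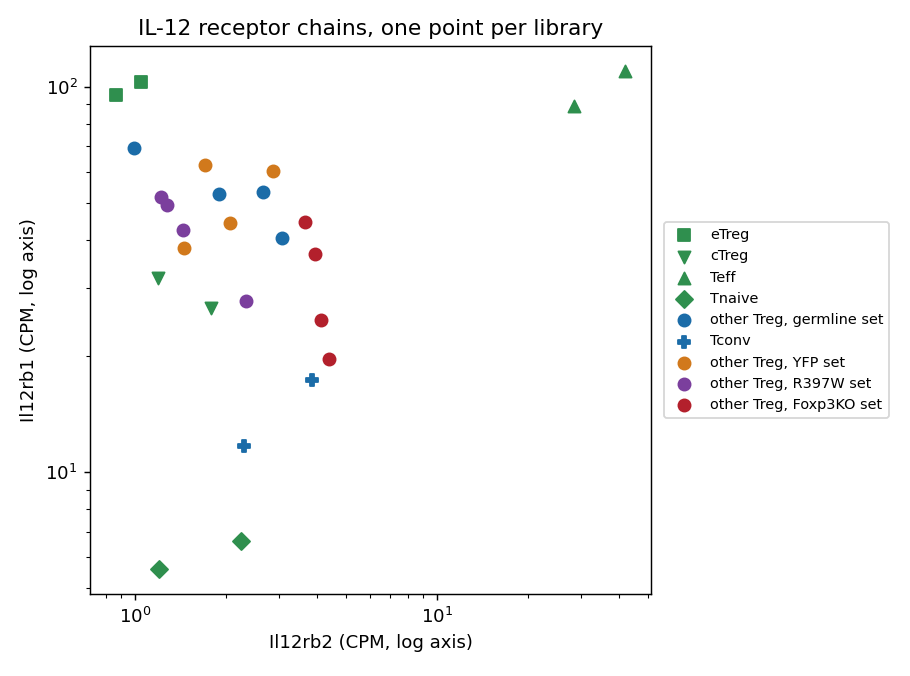
Il12rb1 against Il12rb2 in CPM, both on log axes, with 1 point per library, shape for the cell population and colour for the sort set. The eTreg points lie at the upper left, near 100 CPM of Il12rb1 and 1 CPM of Il12rb2, and the Teff points at the upper right.

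Loss of BATF was examined in 2 designs, in all cells and in Foxp3-expressing cells alone. In both, Ccl5 fell and the other 7 genes did not pass the test. This is 1 of 8 genes in BATFKO Treg, where 2.69% of all tested genes were called, 1.05% higher and 1.64% lower, and 1 of 8 in BATFcKO Treg, where 2.04% were called, 0.319% higher and 1.72% lower.

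Ccl5 had 2.4 and 4.83 CPM in BATFKO Treg, against 9.37 and 18.2 CPM in WT Treg (log2 fold change -1.95 ± 0.37, edgeR adjusted p = 0.0048). It had 1.38 and 0.964 CPM in BATFcKO Treg, against 9.28 and 8.78 CPM in WT Treg YFP (-2.94 ± 0.50, edgeR adjusted p = 0.0024), the mutant values coming from 8 and 6 reads. Mutant and wild-type libraries did not overlap in either set. The call depended on single libraries: the edgeR adjusted p was 0.106 without the second WT Treg library, 0.0841 without the first BATFKO library and 0.0712 without the second BATFcKO library, and 0.61 when the germline libraries were fitted alone.

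Tbx21 had 12.6 and 14.0 CPM in BATFKO Treg, against 7.74 and 17.7 CPM in WT Treg (0.08 ± 0.32, edgeR adjusted p = 1.0). It had 6.72 and 5.3 CPM in BATFcKO Treg, against 6.85 and 9.1 CPM in WT Treg YFP (-0.41 ± 0.38, edgeR adjusted p = 0.82). Mutant values of this regulator lay within the wild-type range in the germline set and just under it in the YFP set. Eomes had 4.94 and 5.99 CPM in BATFKO Treg, against 1.9 and 3.14 CPM in WT Treg, groups that did not overlap (1.13 ± 0.41, edgeR adjusted p = 0.21). In the YFP set it overlapped, with 4.99 and 1.77 CPM in BATFcKO Treg, against 2.85 and 1.6 CPM in WT Treg YFP (0.57 ± 0.46, edgeR adjusted p = 0.78).

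Ifng had 24.6 and 13.2 CPM in BATFKO Treg, against 15.4 and 17.5 CPM in WT Treg (0.22 ± 0.36, edgeR adjusted p = 0.96). It had 9.13 and 4.02 CPM in BATFcKO Treg, against 8.85 and 11.8 CPM in WT Treg YFP (-0.66 ± 0.43, edgeR adjusted p = 0.68). The 2 mutant libraries of each set lay on both sides of a wild-type library. Il12rb1 had 40.5 and 53.4 CPM in BATFKO Treg, against 52.6 and 69.5 CPM in WT Treg (-0.38 ± 0.21, edgeR adjusted p = 0.53). It had 44.3 and 38.1 CPM in BATFcKO Treg, against 62.5 and 60.3 CPM in WT Treg YFP (-0.58 ± 0.21, edgeR adjusted p = 0.24). Hopx was at 137 and 141 CPM in BATFKO Treg, against 99.3 and 111 CPM in WT Treg, without overlap; it missed the edgeR threshold (0.40 ± 0.13, adjusted p = 0.14) and passed that of DESeq2 (adjusted p = 0.0138). In the YFP set Hopx had 112 and 125 CPM in BATFcKO Treg, against 112 and 119 CPM in WT Treg YFP (0.04 ± 0.13, edgeR adjusted p = 0.97).

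Il12rb2 rested on 23 and 16 reads in BATFKO Treg, against 14 and 6 reads in WT Treg (0.96 ± 0.43, edgeR adjusted p = 0.37). It rested on 12 and 9 reads in BATFcKO Treg, against 12 and 18 reads in WT Treg YFP (-0.38 ± 0.45, edgeR adjusted p = 0.87). Stat4 had log2 fold changes of -0.03 ± 0.15 in BATFKO Treg (edgeR adjusted p = 1.0) and -0.34 ± 0.15 in BATFcKO Treg (edgeR adjusted p = 0.41). When the germline change was tested against the Treg-specific change, edgeR called 0 of the 8 genes and 0 of all 12227 (0%), with 633 genes at an unadjusted p under 0.05, Il12rb2 among them (1.33 ± 0.62, edgeR adjusted p = 0.95); DESeq2 called 11 genes, of which 0 were among the 8.

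Receptors of the same pathway fell beside Ccl5. Il18rap fell, with edgeR adjusted p of 1.1e-05 and 9.1e-08 in the germline and YFP sets. It averaged 5.27 ± 0.0841 CPM in BATFKO Treg and 22.1 ± 2.03 CPM in WT Treg, and 1.82 ± 0.381 CPM in BATFcKO Treg and 24.7 ± 4.51 CPM in WT Treg YFP. Il18r1 and Cxcr3 also fell in both designs, and Cxcr6 fell in BATFcKO Treg. Prdm1, the gene of the effector factor Blimp-1, fell in both, averaging 14.9 ± 5.76 CPM in BATFKO Treg and 33.0 ± 0.526 CPM in WT Treg, and 8.72 ± 0.395 CPM in BATFcKO Treg and 25.9 ± 1.68 CPM in WT Treg YFP. These genes were higher in eTreg than in cTreg. Zeb2, Nkg7 and the interferon-gamma target gene Cd274 were also higher in eTreg than in cTreg. They rose in BATFKO Treg and did not pass the test in BATFcKO Treg. The repressor gene Zeb2 averaged 6.75 ± 0.105 CPM in BATFKO Treg and 1.04 ± 0.0681 CPM in WT Treg (edgeR adjusted p = 0.002). Nkg7 averaged 29.3 ± 5.71 CPM in BATFKO Treg and 14.5 ± 0.857 CPM in WT Treg (edgeR adjusted p = 0.0074).

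Cd44, a gene of activated T cells whose product was used in the sort gates of cTreg and Tnaive, fell in both BATF designs. It averaged 105 ± 30.2 CPM in BATFKO Treg and 188 ± 11.7 CPM in WT Treg, with an edgeR adjusted p of 0.0016. It averaged 79.7 ± 3.44 CPM in BATFcKO Treg and 165 ± 8.12 CPM in WT Treg YFP, with an edgeR adjusted p of 0.00027. The part of resting and activated cells in the change of Ccl5 and these receptors was not tested.

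Interferon-gamma target genes went the other way in the germline set. In BATFKO Treg 10 of 25 rose, where 1.05% of all tested genes were called higher, and the other 15 did not pass the test. The median log2 fold change was 0.59 over the list and -0.004 over all genes tested. These calls depended on the joint fit of all groups: 0% of genes were called when only the BATFKO and WT Treg libraries were fitted. Gbp2 averaged 216 ± 9.64 CPM in BATFKO Treg and 97.8 ± 9.43 CPM in WT Treg. In BATFcKO Treg 1 of the 25 rose, where 0.319% of all tested genes were called higher. It was again Gbp2, at 163 ± 28.0 CPM in BATFcKO Treg and 109 ± 16.2 CPM in WT Treg YFP. The test of the difference between the 2 designs called no gene with edgeR, as given above.

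**Figure D4:**
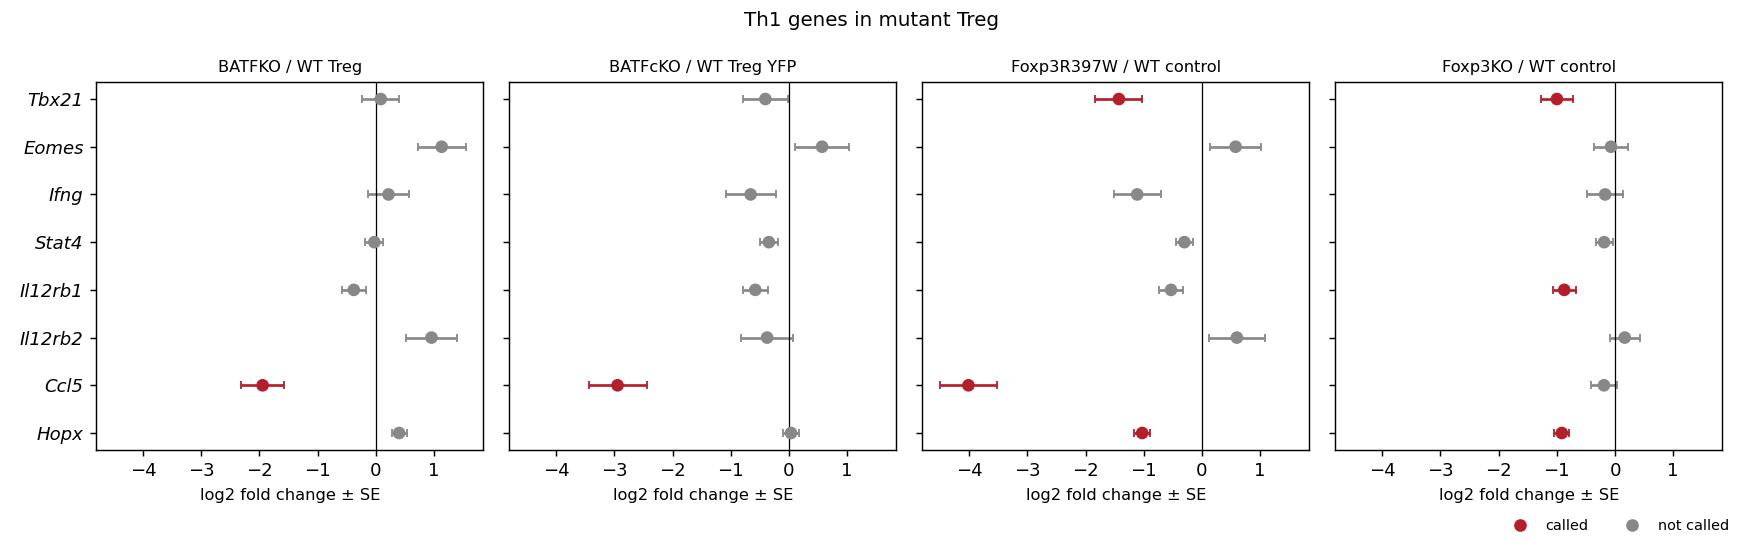
Log2 fold changes with their standard errors for the 8 genes in each kind of mutant Treg over its own wild-type Treg, on a shared axis; red marks genes past the edgeR threshold. Ccl5 is the red point of both BATF panels and the lowest of the R397W panel, and lies near 0 in the Foxp3KO panel, where Tbx21, Il12rb1 and Hopx are red.

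The Foxp3 mutants ask how the same genes stand when Foxp3 carries a missense or a frameshift allele. In Foxp3R397W Treg 3 of the 8 genes fell, Ccl5, Hopx and Tbx21, where 6.13% of all tested genes were called, 2.18% higher and 3.94% lower. In Foxp3KO Treg 3 of the 8 fell, Hopx, Il12rb1 and Tbx21, where 9% were called, 2.62% higher and 6.39% lower. Hopx and Tbx21 were called in both.

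Hopx had 51.1 and 47.4 CPM in Foxp3R397W Treg, against 107 and 93.1 CPM in their controls (log2 fold change -1.03 ± 0.14, edgeR adjusted p = 0.0001). It had 51.9 and 52.9 CPM in Foxp3KO Treg, against 98.4 and 99.0 CPM in their controls (-0.91 ± 0.13, edgeR adjusted p = 0.0001). All 4 mutant libraries therefore held Hopx at close to 50 CPM, below every unmutated Treg library and above the Tconv and Tnaive libraries.

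Tbx21 had 4.15 and 2.93 CPM in Foxp3R397W Treg, against 8.55 and 10.4 CPM in their controls (-1.43 ± 0.40, edgeR adjusted p = 0.041). It had 6.0 and 4.19 CPM in Foxp3KO Treg, against 9.59 and 10.8 CPM in their controls (-0.998 ± 0.277, edgeR adjusted p = 0.028). Mutant libraries lay below control libraries in both sets. The calls sat near the threshold: without any 1 of the 4 R397W-set libraries the edgeR adjusted p was 0.11 to 0.322, and in the Foxp3KO set it was 0.347 without the second Foxp3KO library, 0.0748 and 0.216 without the first and the second control library, while the call held without the first Foxp3KO library. Both calls also ended without the filter on low counts (edgeR adjusted p = 0.0778 in Foxp3R397W Treg and 0.0515 in Foxp3KO Treg), and that of Foxp3R397W Treg when the Foxp3KO set was left out of the fit (0.0552).

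Il12rb1 had 24.8 and 19.7 CPM in Foxp3KO Treg, against 36.9 and 44.5 CPM in their controls (-0.87 ± 0.20, edgeR adjusted p = 0.0072). It had 42.5 and 27.8 CPM in Foxp3R397W Treg, against 51.9 and 49.4 CPM in their controls (-0.53 ± 0.21, edgeR adjusted p = 0.19). All mutant values of the shared receptor chain were under those of their own controls. Its call in Foxp3KO Treg ended without the second control library (edgeR adjusted p = 0.13) and without the second Foxp3KO library (edgeR adjusted p = 0.154).

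Ccl5 had 0.958 and 0.732 CPM in Foxp3R397W Treg, against 11.8 and 15.7 CPM in their controls (-4.01 ± 0.49, edgeR adjusted p = 4.9e-05), with 6 and 5 reads in the mutant libraries. In the other set it had 45.3 and 46.7 CPM in Foxp3KO Treg, against 57.4 and 47.5 CPM in their controls (-0.19 ± 0.23, edgeR adjusted p = 0.75). The R397W libraries thus had nearly no Ccl5, and the Foxp3KO libraries slightly more than eTreg. The change in Foxp3KO Treg minus the change in Foxp3R397W Treg was 3.82 ± 0.56 (edgeR adjusted p = 0.023), 1 of 2 genes called among all tested (0.0164%; 0.00818% higher and 0.00818% lower), with 407 at an unadjusted p under 0.05. That call ended without the filter on low counts (edgeR adjusted p = 0.0594) and without any 1 of the 8 libraries (0.0548 to 0.305).

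The 4 Foxp3KO-set libraries, mutant and control alike, stood above all other unsplit Treg libraries in this gene. Ccl5 was at 45.3 to 57.4 CPM there, against 8.78 to 18.2 CPM in the wild-type Treg libraries of the germline, YFP and R397W sets. The 14 NK and CD8 genes summed to 59.3 to 61.2 CPM in Foxp3KO Treg and 62.6 to 64.4 CPM in their controls, against 23.1 to 43.6 CPM in the other unsplit Treg libraries, with 12 and 13 of 14 detected. Cd8a had 7.41 and 8.22 CPM in Foxp3KO Treg and 8.33 and 6.03 CPM in their controls, against at most 1.93 CPM in the other unsplit Treg, whereas Klra8 was at 0 in both groups. Counts of detected genes are not comparable here, since these 4 libraries were the deepest. Cd3e, a T cell gene, was at 321 to 341 CPM in them, against 637 to 866 CPM in the other unsplit Treg libraries. The 7 T cell genes together summed to 3735.9 to 4015.0 CPM, against 3924.0 to 4482.3 CPM. The part of other cells, of depth and of other differences between the sets in the Ccl5 levels of this set was not tested.

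Ifng had 5.27 and 8.78 CPM in Foxp3R397W Treg, against 12.8 and 17.8 CPM in their controls, lower in both mutant libraries without passing the test (-1.11 ± 0.40, edgeR adjusted p = 0.13; 0.00242 when the 4 libraries of the set were fitted alone). It had 19.1 and 14.8 CPM in Foxp3KO Treg, against 21.1 and 17.2 CPM in their controls (-0.17 ± 0.31, edgeR adjusted p = 0.85). None of the 4 mutant libraries had more Ifng than the higher of its controls. The remaining genes did not pass the test in either mutant. Eomes had log2 fold changes of 0.58 ± 0.44 in Foxp3R397W Treg (edgeR adjusted p = 0.62) and -0.07 ± 0.29 in Foxp3KO Treg (edgeR adjusted p = 0.94). Il12rb2 had log2 fold changes of 0.60 ± 0.49 in Foxp3R397W Treg (edgeR adjusted p = 0.65) and 0.17 ± 0.26 in Foxp3KO Treg (edgeR adjusted p = 0.81). Stat4 had log2 fold changes of -0.30 ± 0.15 in Foxp3R397W Treg (edgeR adjusted p = 0.34) and -0.19 ± 0.15 in Foxp3KO Treg (edgeR adjusted p = 0.57); both passed the threshold when each set was fitted alone (0.0342 and 0.00794).

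In the wider lists, Cxcr3 averaged 7.24 ± 0.527 CPM in Foxp3R397W Treg and 47.0 ± 7.51 CPM in their controls, and 13.2 ± 2.05 CPM in Foxp3KO Treg and 54.2 ± 8.22 CPM in their controls. Il18rap also fell in both, while its partner chain Il18r1 rose in Foxp3R397W Treg (380 ± 42.5 CPM, against 194 ± 19.4 CPM in their controls, edgeR adjusted p = 0.0027). Zeb2 (log2 fold change 1.71) and Id2 (0.82) also rose in Foxp3R397W Treg, and the receptor chain gene Ifngr2 rose in Foxp3KO Treg (0.82, edgeR adjusted p = 0.0048). The opposing factor Tcf7, which marks resting T cells, rose in both, averaging 1432 ± 52.0 CPM in Foxp3R397W Treg and 771 ± 15.0 CPM in their controls, and 1879 ± 19.6 CPM in Foxp3KO Treg and 1069 ± 6.89 CPM in their controls. Bach2 rose with it, while Gata3 fell in both. Of 25 interferon-gamma target genes, 4 fell in Foxp3R397W Treg (Gbp3, Cd274, Cxcl10, Gbp5) and 3 in Foxp3KO Treg (Gbp3, Cxcl10, Cd274). The others did not pass the test. Of all tested genes, 3.94% were called lower in Foxp3R397W Treg and 6.39% in Foxp3KO Treg.

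Cd44 fell in both Foxp3 mutants, averaging 141 ± 1.56 CPM in Foxp3R397W Treg and 205 ± 4.12 CPM in their controls (edgeR adjusted p = 0.024), and 122 ± 12.7 CPM in Foxp3KO Treg and 169 ± 1.54 CPM in their controls (edgeR adjusted p = 0.031). The part of resting and activated cells in the changes of Hopx, Tbx21, Il12rb1 and Ccl5 was not tested.

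Across the 13 groups, Teff had the highest mean of 7 genes, and BATFKO Treg that of Hopx, at 139 ± 3.22 CPM (SD, n = 2). Levels set across sort sets are descriptions, since the sets differ in reporter alleles, gates and depth. For Tbx21, eTreg stood second at 23.7 ± 2.58 CPM, and below it the order from WT Tconv (13.9 ± 5.71 CPM) to WT Treg YFP (7.97 ± 1.59 CPM) overlapped between every 2 neighbours. BATFcKO Treg (6.01 ± 1.0 CPM), Foxp3KO Treg (5.1 ± 1.28 CPM), Foxp3R397W Treg (3.54 ± 0.865 CPM), cTreg (1.11 ± 0.246 CPM) and Tnaive (0.454 ± 0.0776 CPM) closed the order.

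For Ifng the second place did not belong to eTreg. The unsplit Treg of the Foxp3KO controls averaged 19.1 ± 2.78 CPM and those of the germline set 16.4 ± 1.52 CPM, against 7.27 ± 1.74 CPM in eTreg, a different set. As a ratio of its highest to its lowest group mean, Stat4 spanned the narrowest range of the 8 genes, from 97.5 ± 14.4 CPM in BATFcKO Treg to 230 ± 6.78 CPM in Teff, and the 8 groups from Foxp3KO Treg down overlapped with their neighbours. For Il12rb2, every group except Teff (35.2 ± 9.71 CPM) lay between 0.957 ± 0.132 CPM in eTreg and 4.27 ± 0.197 CPM in Foxp3KO Treg. For Eomes, Tconv stood second at 10.4 ± 2.98 CPM, below Teff at 19.8 ± 2.64 CPM.

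For Il12rb1, Teff (99.8 ± 15.0 CPM) and eTreg (99.4 ± 5.63 CPM) overlapped at the top, and Tconv (14.5 ± 4.01 CPM) and Tnaive (6.1 ± 0.726 CPM) closed the order. For Ccl5 the order ran from 241 ± 18.8 CPM in Teff through 52.5 ± 7.01 CPM in the Foxp3KO controls, 46.0 ± 0.928 CPM in Foxp3KO Treg and 39.7 ± 0.13 CPM in eTreg to 0.302 ± 0.0042 CPM in Tnaive, and between them Tconv (19.9 ± 9.94 CPM), WT Treg (13.8 ± 6.21 CPM) and the R397W controls (13.7 ± 2.81 CPM) overlapped with their neighbours.

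Likeness of pattern was measured as Pearson's r of log2 CPM (prior count 2), each gene centred on the mean of its sort set, over the same 26 libraries and among 10128 genes with a mean of at least 5 CPM in a group. The r values are descriptions: the libraries share sets and depth, and the large eTreg and Teff steps weigh most. Tbx21 was most like Cacna1d (r = 0.966), Ifng (0.964) and Serpina3f (0.962). Ifng was most like Tbx21, Gpm6b (0.959) and Cacna1d (0.953) on this centred scale. Without centring, r between Tbx21 and Ifng was 0.815, and neither was among the 3 nearest genes of the other: Tbx21 was nearest to Cacna1d, Serpina3f and Soat2, and Ifng to Sema4c, Fam43a and Tns2. Ccl5 was most like Itga1 (0.956), Heatr9 (0.948) and Cxcr3 (0.947).

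Eomes was most like Wfikkn2 (0.89), Lmo4 (0.86) and Sidt1 (0.851), and among the 8 genes it was nearest to Il12rb2 (0.785) and far from Tbx21 (0.277). Il12rb2 was most like Epha2 (0.934), Tbc1d8 (0.922) and Siglech (0.919), the plasmacytoid dendritic cell marker that was at most 0.481 CPM outside Teff. Hopx was most like Il2rb (0.981), Syne3 (0.975) and Entpd1 (0.974), and nearest among the 8 genes to Il12rb1 (0.871). Between members, r was 0.932 for Tbx21 and Ccl5, 0.265 for the receptor chains Il12rb1 and Il12rb2, and -0.109 for Eomes and Il12rb1.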

How the data were processed

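The authors deposited raw counts per gene symbol, without normalization; STAR 2.6.1c and mm10 are named in the submitters' processing notes, and the counting tool and its strand setting are not given in the sources used here. Of the values, 4 columns that matched no label were not used. The 24 libraries of a second deposited count table held the same counts. Library totals of 5615929 to 34613707 set the precision.

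Counts of 26 libraries were fitted together with edgeR 4.0.16 in R 4.3.3 (limma 3.58.1): TMM scaling, filterByExpr by group (12227 genes kept, 12184 removed), robust quasi-likelihood fit with 1 coefficient per group and 13 residual degrees of freedom, and quasi-likelihood F tests. A gene was called at a Benjamini-Hochberg adjusted p below 0.05 over all tested genes. A fold change is the first-named group over the second, its SE is its size divided by the square root of F, and levels are TMM-scaled CPM. With 1 to 3 reads in a group, a depth-scaled count ratio with an exact 95% interval is given. Lengths and positions come from GENCODE M21 on mm10, promoters from RefSeq on GRCm38.p6. The fit was checked on simulated counts.

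The 8 genes and all lists were chosen with earlier results of these data known. Named were all 8 genes in every comparison, and from each list at most 4 called genes with the smallest p and 3 uncalled genes with the highest level; Il18r1, Cxcr6, Tgtp2 and other list members are named with their direction. Alternatives were DESeq2 1.42.0 (test and size factors), no filter, a replicate block, fits of only the compared libraries, each library left out, and, added after seeing the data, the Foxp3KO set left out. The groups of the germline, YFP and sorted sets share the numbers 1 and 2, which the labels do not tie to animals or days. Some list members are not reported here.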

Additional observations from a re-analysis of the deposited data

Results flagged for a closer look

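The 6 results below stand out because 2 changes under the same kind of contrast differed by a direct edgeR test. The change in eTreg over cTreg was lower than the change in Teff over Tnaive for Eomes, by a difference of -5.03 on the log2 scale. Il12rb2 differed by -4.98, Tbx21 by -3.89, Hopx by -3.28 and Il12rb1 by -2.26 in the same direction. For Ccl5, the change in Foxp3KO Treg minus the change in Foxp3R397W Treg was 3.82, a call that ended when any 1 of the 8 libraries was left out.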

How the results depend on the processing

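Shares below are percent of the genes tested in each fit and stand against those given in the report. DESeq2 size factors and leaving out the Foxp3KO set kept each count of called genes within 1.5 times of the reported one, and so did leaving out the filter on low counts, except that the germline against Treg-specific BATF difference then called 0.0312% of genes and the Foxp3KO against R397W difference 0 of the 8. Fitting only the compared libraries called 0% in BATFKO Treg (0 of the 8), 11.8% in Foxp3R397W Treg (5 of the 8), 31.9% in Foxp3KO Treg, 49.8% in eTreg against cTreg, 25.9% in cTreg against Tnaive, 4.98% in WT Treg against Tconv, 9.76% in the effector difference and 0.0556% in the Foxp3KO against R397W difference, with 2 of the 8 in BATFcKO Treg. The DESeq2 test called 2 of the 8 in BATFKO Treg, 8 of 8 in the effector difference and 0.0955% of genes in the germline against Treg-specific difference. A replicate block by library number called 8.48% in BATFKO Treg (3 of the 8), 9.12% in BATFcKO Treg (2 of the 8), 48.9% in eTreg against cTreg, 53% in Teff against Tnaive, 29.5% in eTreg against Teff, 23.7% in cTreg against Tnaive, 34.1% in WT Treg against Tconv (5 of the 8), 13.4% in the effector difference and 1.14% in the germline against Treg-specific difference. Under the block Hopx in BATFKO Treg had an edgeR adjusted p of 0.00318 and Eomes 0.0152, and in WT Treg against Tconv Ccl5 had 0.00767 and Il12rb2 0.0431. Same-numbered libraries deviated together (r across genes of 0.495 to 0.571 in the germline set, 0.242 in the YFP set and 0.0801 to 0.233 in the sorted set), but with numbers 1 and 2 only and no label tying them, they were not taken as pairs. No paired analysis was possible for the R397W and Foxp3KO sets because mutants and controls share no number. The cause of these shifts was not tested.

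With 1 library left out, the share of genes called ranged from 1.38% to 2.93% in BATFKO Treg, 0.556% to 1.28% in BATFcKO Treg, 2.56% to 3.16% in Foxp3R397W Treg, 3.28% to 5.64% in Foxp3KO Treg, 7.89% to 8.34% in cTreg against Tnaive, 9.5% to 12.2% in eTreg against Teff, 3.39% to 4.85% in the effector difference and 0% to 0.151% in the germline against Treg-specific difference, and was 0% in the Foxp3KO against R397W difference. Of the 8 genes, 0 to 1 were called in BATFKO Treg and in BATFcKO Treg, 1 to 3 in Foxp3KO Treg and 0 in the Foxp3KO against R397W difference. Log2 fold changes that were not called changed sign among these fits. In BATFKO Treg, Tbx21 ranged from -0.419 to 0.772, Ifng from -0.300 to 0.586 and Stat4 from -0.300 to 0.211. In BATFcKO Treg, Eomes ranged from -0.349 to 1.151, Il12rb2 from -0.715 to 0.024 and Hopx from -0.039 to 0.109. In the germline against Treg-specific difference, Tbx21 ranged from -0.012 to 1.178, Eomes from -0.011 to 1.483 and Il12rb1 from -0.008 to 0.411. Between WT Treg and Tconv, Tbx21 ranged from -0.855 to 0.345 and Ccl5 from -1.097 to 0.083. Eomes ranged from -0.198 to 0.073 in Foxp3KO Treg and from -0.065 to 0.473 in cTreg against Tnaive, where Il12rb2 ranged from -0.582 to 0.331. Il12rb1 ranged from -0.152 to 0.151 in eTreg against Teff. Hopx ranged from -0.082 to 0.099 in eTreg against cTreg, and was -0.033 without the filter and -0.034 without the Foxp3KO set. Among values of single genes, 29 passed the threshold newly, 27 lost it and 25 changed sign. Another 934 stayed the same. For fold changes this means the same direction and side of the threshold. For levels per kilobase in Teff it means within their spread, and 5 of these levels moved beyond it.

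Depth limits Eomes and Il12rb2 in eTreg (6 to 11 reads per library), Ccl5 in BATFcKO and Foxp3R397W Treg (5 to 8 reads), and Ifng and Ccl5 in cTreg and Tnaive (0 to 6 reads). It also limits Tbx21 in cTreg (10 and 13 reads) and in Tnaive (5 and 4 reads).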
